A study of Homo sapiens with 4 samples.

Results

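The replication-dependent histone genes were examined in nucleosome maps of BE(2)C cells. They were taken as the protein-coding genes whose symbols name a clustered histone gene of class H1 (H1-1 to H1-6), H2A (H2AC), H2B (H2BC), H3 (H3C) or H4 (H4C) in the GENCODE annotation of GRCh37 (hg19). This rule gave 64 of 20163 protein-coding genes, with 6 H1, 16 H2A, 16 H2B, 13 H3 and 13 H4 genes. A pair of further histone genes (HIST2H2AA3 and HIST1H4B) carried older symbols in this annotation and were not counted. BE(2)C is an established neuroblastoma line with amplified MYCN, a clone of the line SK-N-BE(2). Cells of the control group received a control siRNA and those of the knockdown group an siRNA targeting MYCN, in each case with 6 h of transfection, and were collected on the next day. The labels give 80 nM siRNA for both groups, while the study's methods state a lower final concentration. Micrococcal nuclease (MNase), an enzyme that cuts the linker DNA between nucleosomes, was used to digest the chromatin, and fragments it left were sequenced from both ends. There were 2 control and 2 MYCN knockdown libraries, and values of the 4 libraries are given below in the order control replicate 1, control replicate 2, MYCN knockdown replicate 1 and MYCN knockdown replicate 2. The study's methods call the replicates biological, but no label ties them to separate cultures, so the p-values may measure only the spread between these libraries.

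Replication-dependent histone genes supply the histones that package newly copied DNA, and they are transcribed mainly in S phase. The core histones H2A, H2B, H3 and H4 form the nucleosome itself, and the linker histone H1 binds where DNA enters and leaves it. Most of these genes have no introns, stand in clusters and make mRNAs that end in a stem-loop in place of a poly(A) tail. The stem-loop is bound by SLBP, and transcription of the clusters depends on the coactivator NPAT, which cyclin E and CDK2 phosphorylate. Many H2A and H2B genes are arranged head to head and share the DNA between their transcription start sites (TSSs).

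All 64 genes had a single exon in their canonical transcript, whose median length was 489.5 bp. They lay in 6 clusters, in which neighbouring members were less than 500 kb apart. The largest cluster held 30 genes on the short arm of chromosome 6 (first TSS at 25726790, last at 26285762). Another 5 genes lay between 27100574 and 27114885 and 16 genes between 27775707 and 27861203 on the same chromosome. On chromosome 1 there were 10 genes between 149783925 and 149859515 and 2 genes at 228645574 and 228645804. H4C16 stood alone on chromosome 12 with its TSS at 14924065. The windows of 40 genes overlapped that of another member, so the 64 windows, which reached 1000 bp to either side of the TSS, formed 43 groups that did not overlap.

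Each library was a list of called nucleosomes of 147 bp, each with its read count and its fuzziness, the standard deviation in bp of fragment midpoints around the called dyad (nucleosome centre). The lists held between 147370973 and 242544884 reads, with a median of 12 reads per nucleosome in both replicates 1 and 18 in both replicates 2. No nucleosome under 6 reads was listed, so the absence of a nucleosome in these lists means fewer than 6 reads called at a position. As a check of the line, the window of the amplified gene MYCN held 10354, 13633, 10325 and 13717 reads, which is 97.7, 81.1, 100.2 and 82.1 times the median window. The highest count of a nucleosome was 1764 in each list, at 35 to 70 nucleosomes, and the highest in the MYCN window was 1520, 1700, 1519 and 1689, so these multiples may be understated if the lists have an upper limit. The nucleosomes around the members held at most 51 reads. MNase-seq does not measure transcripts, so it gives no check of the knockdown.

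The sequences upstream of a few of these genes are shown first, since the empty promoters described next lie over them. Letters in capitals mark the motifs searched on both strands, with matches that overlap printed as a single run of capitals. The TATA box was searched as TATAAA. The CCAAT box, which NF-Y binds, was searched as the letters of its name. The octamer, which POU2F1 binds, was searched as ATTTGCAT. The H1 box of linker histone promoters was searched as AAACACA. The E-box, to which MYC proteins bind with MAX, was searched as CACGTG. The first run lies between the divergent TSSs of H2BC12 and H2AC12, a pair with no dyad there in any library (GRCh37, chr6:27114635-27114884, plus strand, from H2BC12 on the left to H2AC12 on the right).
H2BC12 to H2AC12: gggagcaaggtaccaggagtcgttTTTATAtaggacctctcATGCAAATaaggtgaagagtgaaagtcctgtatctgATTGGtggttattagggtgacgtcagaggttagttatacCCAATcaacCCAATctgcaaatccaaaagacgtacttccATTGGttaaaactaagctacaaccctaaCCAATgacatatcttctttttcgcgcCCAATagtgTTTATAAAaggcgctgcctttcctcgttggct
The corresponding DNA of H2AC1 and H2BC1, which encode testis forms of H2A and H2B, held a nucleosome in all 4 libraries (chr6:25726791-25727004, plus strand).
H2AC1 to H2BC1: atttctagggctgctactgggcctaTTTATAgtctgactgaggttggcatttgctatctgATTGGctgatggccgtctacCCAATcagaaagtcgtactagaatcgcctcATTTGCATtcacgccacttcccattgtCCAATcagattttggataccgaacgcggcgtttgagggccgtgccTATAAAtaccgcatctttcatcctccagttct
The 200 bases before the TSS of the linker histone gene H1-4 carry the H1 box, a CCAAT box and TATA boxes (chr6:26156357-26156556, plus strand).
H1-4: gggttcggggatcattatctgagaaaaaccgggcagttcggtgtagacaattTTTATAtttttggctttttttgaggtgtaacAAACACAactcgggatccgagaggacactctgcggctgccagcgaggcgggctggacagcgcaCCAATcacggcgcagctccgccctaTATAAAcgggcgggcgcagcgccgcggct
A pair of H4 genes is shown because they differ in nucleosomes, H4C5 being empty in all libraries (chr6:26204638-26204837, plus strand) and H4C7 filled in all (chr6:26247225-26247424, minus strand).
H4C5: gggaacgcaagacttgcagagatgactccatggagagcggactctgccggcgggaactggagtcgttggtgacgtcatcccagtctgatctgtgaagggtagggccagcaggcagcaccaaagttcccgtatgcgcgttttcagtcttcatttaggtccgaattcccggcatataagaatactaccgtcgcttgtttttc
H4C7: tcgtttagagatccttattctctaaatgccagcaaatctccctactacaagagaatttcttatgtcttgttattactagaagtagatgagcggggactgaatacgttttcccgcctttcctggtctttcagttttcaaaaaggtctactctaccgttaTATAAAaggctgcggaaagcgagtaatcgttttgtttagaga

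The motifs divided the classes. Within 251 bp, which began 200 bp before the TSS and ended 50 bp after it, CCAAT stood in all 6 H1, 16 H2A, 16 H2B and 13 H3 genes but in 4 of 13 H4 genes, and in 32.1% of all protein-coding genes. The octamer was found in 12 of 16 H2B and 7 of 16 H2A genes and in no H1, H3 or H4 gene, against 1.27% of all genes. The H1 box stood in 6 of 6 H1 genes, in 9 members in all, and in 3.35% of all genes. TATAAA was present in 38 members (59.4%) and in 8.26% of all genes. No member held CACGTG in this window, which 7.84% of all genes did. These are matches of letters and not measured binding sites. The windows of divergent H2A and H2B genes overlap, so a single match can count for both genes, as the octamer between H2AC1 and H2BC1 does. Among the printed sequences, the DNA between H2AC1 and H2BC1 held 2 TATA boxes, 3 CCAAT boxes and an octamer under the called nucleosome or beside it. The empty 200 bases of H4C5 held none of the 5 motifs. Whether any motif goes with an empty promoter was not tested.

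The promoters of the histone genes were more often free of called nucleosomes than those of other genes. These 251 bp were called empty when no nucleosome had at least 80% of its length inside them. By this rule 57, 56, 57 and 55 of the 64 windows were empty, or 89.1%, 87.5%, 89.1% and 85.9%. Over the 20079 protein-coding genes with reads within 1000 bp of the TSS in all 4 libraries, members included, the shares were 58.4%, 52.6%, 60.3% and 52.1%. In all 4 libraries together, 51 members were empty (79.7%), and 6484 of all genes (32.3%). The excess of empty members was thus present in each library, at either depth and in either group. Empty means that no nucleosome of at least 6 reads was listed, and genes were not matched by read count. Within 1000 bp of the TSS, members held a median of 64, 122.5 and 67.5 reads in control replicates 1 and 2 and MYCN knockdown replicate 1. Over all genes these medians were 106, 168 and 103 reads.

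The empty genes came from every class. They were 15 of 16 H2B genes (H2BC3, H2BC4, H2BC5, H2BC6, H2BC9, H2BC10, H2BC11, H2BC12, H2BC13, H2BC14, H2BC15, H2BC17, H2BC18, H2BC21 and H2BC26) and 14 of 16 H2A genes (H2AC4, H2AC6, H2AC7, H2AC8, H2AC11, H2AC12, H2AC13, H2AC14, H2AC15, H2AC16, H2AC17, H2AC19, H2AC20 and H2AC25). They also included 11 of 13 H3 genes (H3C1, H3C2, H3C3, H3C4, H3C7, H3C8, H3C10, H3C12, H3C13, H3C14 and H3C15) and 4 of 6 H1 genes (H1-2, H1-3, H1-4 and H1-5). The H4 class had the smallest share, with 7 of 13 genes (H4C3, H4C4, H4C5, H4C8, H4C14, H4C15 and H4C16). By cluster, 23 of 30, 4 of 5 and 12 of 16 genes on chromosome 6 and 9 of 10 and 2 of 2 on chromosome 1 were empty throughout.

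The exceptions were few, and 5 genes were filled in all 4 libraries. The nucleosome between H2AC1 and H2BC1 had its dyad at base 102, 95, 112 and 104 of the printed sequence, with 10, 20, 16 and 23 reads. That of H1-1, a linker histone gene, lay 58, 54, 48 and 59 bp upstream of the TSS with 14, 18, 10 and 16 reads. Both positions were thus nearly constant among libraries. H3C6 had its dyad 123, 113, 85 and 122 bp upstream, with 10, 22, 10 and 15 reads. In H4C7 the nucleosome was less fixed, with dyads 20, 7 and 102 bp upstream and, in MYCN knockdown replicate 2, 4 bp downstream, and with 12, 8, 9 and 20 reads. H1-6, which encodes the testis linker histone H1t, was filled in 3 libraries (9, 11 and 14 reads) and empty in control replicate 2. H4C13 was filled in both replicates 1 (9 and 6 reads). The remaining 6 genes were filled in a single library each, by nucleosomes of 6 to 9 reads, close to the minimum of 6 for a nucleosome to be listed. These were H4C9, H4C11 and H4C12 in control replicate 2 and H2AC21, H4C1 and H3C11 in MYCN knockdown replicate 2.

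**Figure D1:**
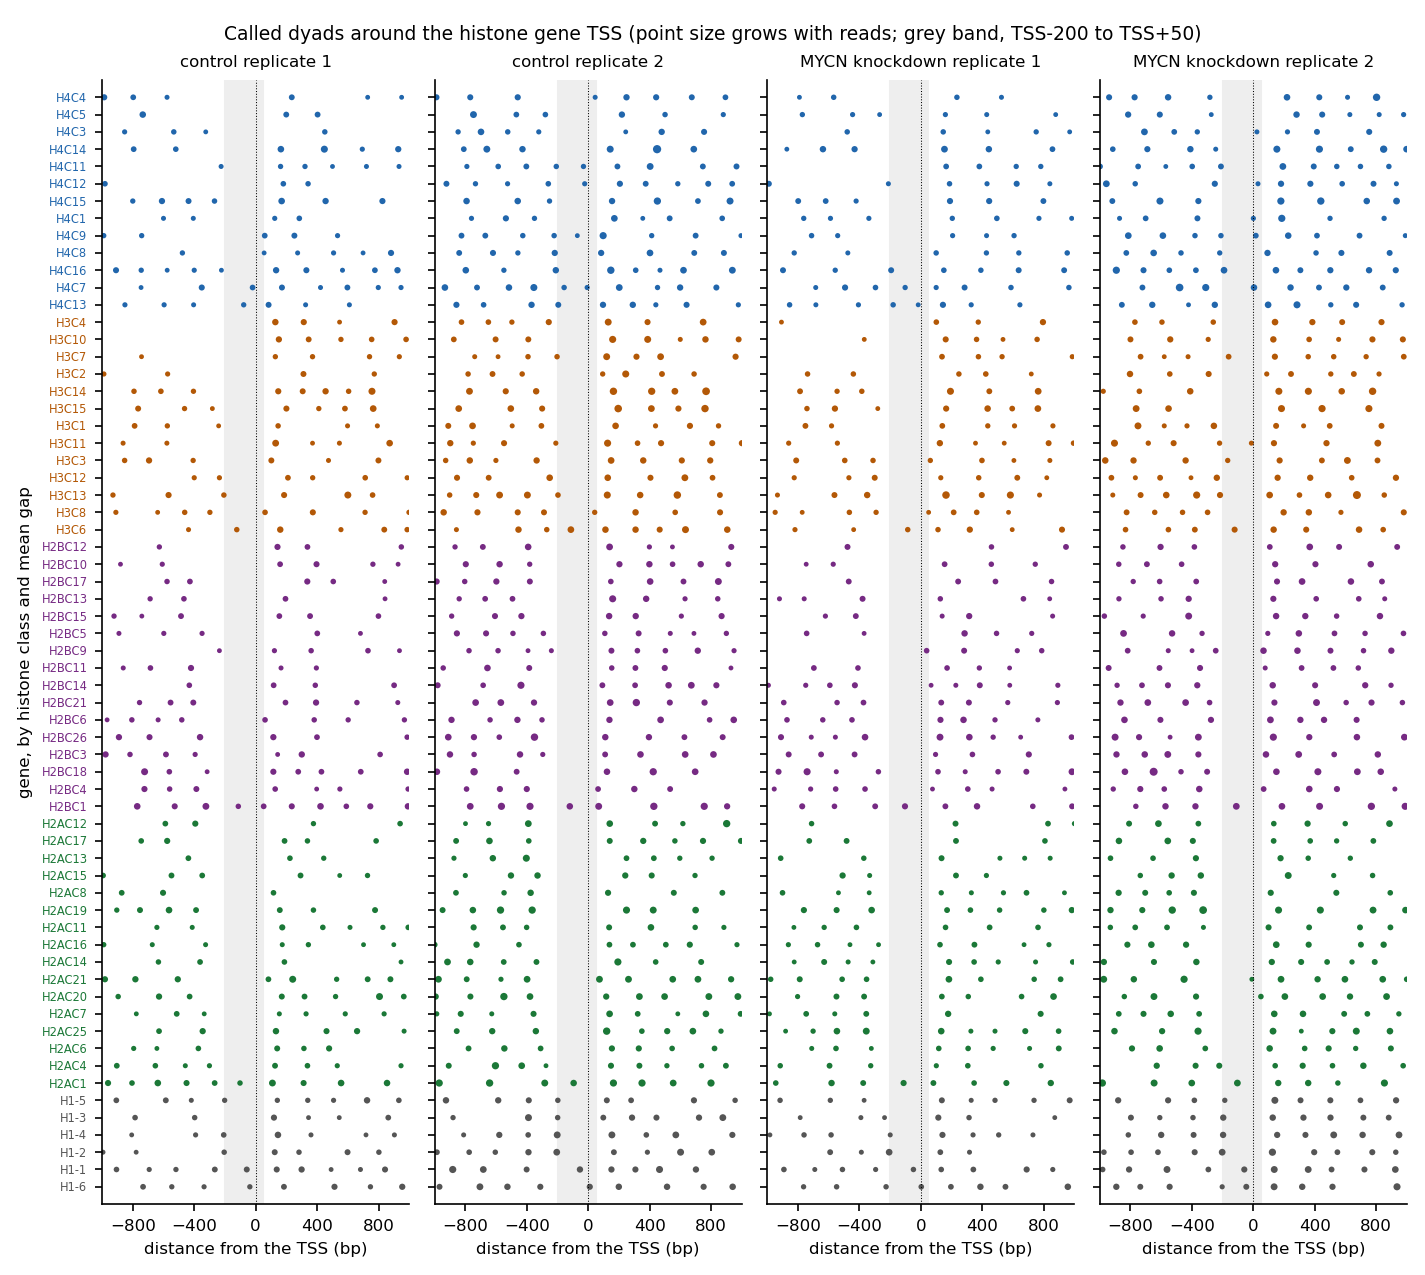
Called dyads of the 64 histone genes, 1 row per gene and 1 panel per library, by distance from the TSS in bp with upstream to the left. Point size grows with the square root of the read count, colour gives the histone class, the grey band spans the 251 bp in which emptiness was called, and most rows have no dyad in it in any library.

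Base composition differed between the histone genes and other genes, and the empty windows were also counted by band of GC content, in comparisons added after the data were seen. The median GC content of the 251-bp window was 43.8% for members and 64.5% for all genes, whereas that of the transcribed region was higher in members (58.2% against 45.4%). By the GC content of the 251 bp themselves, 32 of 36 members below 45% GC were empty in all 4 libraries, against 10.1% of all genes in that band. Between 45 and 55% GC, 16 of 23 members and 19.4% of all genes were empty, and above 55% GC 3 of 5 members and 37.5%. The 2001-bp windows had median GC contents of 48.9% and 55.9%. Grouped by these, 7 of 7 members and 11.9% of all genes were empty below 45% GC, 39 of 52 and 38.3% between 45 and 55%, and 5 of 5 and 33.6% above 55%. The bands above 55% hold too few members for a share.

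The nucleosome-free stretch was also long. The distance between the dyads on either side of the position 75 bp upstream of the TSS had a median of 539.5, 467.5, 506 and 420.5 bp over members. Over all genes it was 316, 289, 327 and 289 bp. The stretch was longer in the replicates 1, which had fewer reads, than in the replicates 2, both for the histone genes and for all genes. In the share of genes covered by a called nucleosome at each base, members reached a lowest value of 6.25%, 9.38%, 7.81% and 7.81% near the TSS. For all genes the lowest values were 33.6%, 38.1%, 32.0% and 38.2%. Downstream, by contrast, the peak of coverage was higher in members, at 84.4%, 89.1%, 87.5% and 92.2%, against 74.8%, 78.0%, 74.0% and 78.0%. The first dyad between the TSS and 250 bp downstream had a median distance of 144, 139.5, 138.5 and 134 bp in members and 119, 120, 121 and 121 bp in all genes. A first dyad was called in all 4 libraries in 56 members, and its position ranged by a median of 59.5 bp among libraries (49 bp over all genes).

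**Figure D2:**
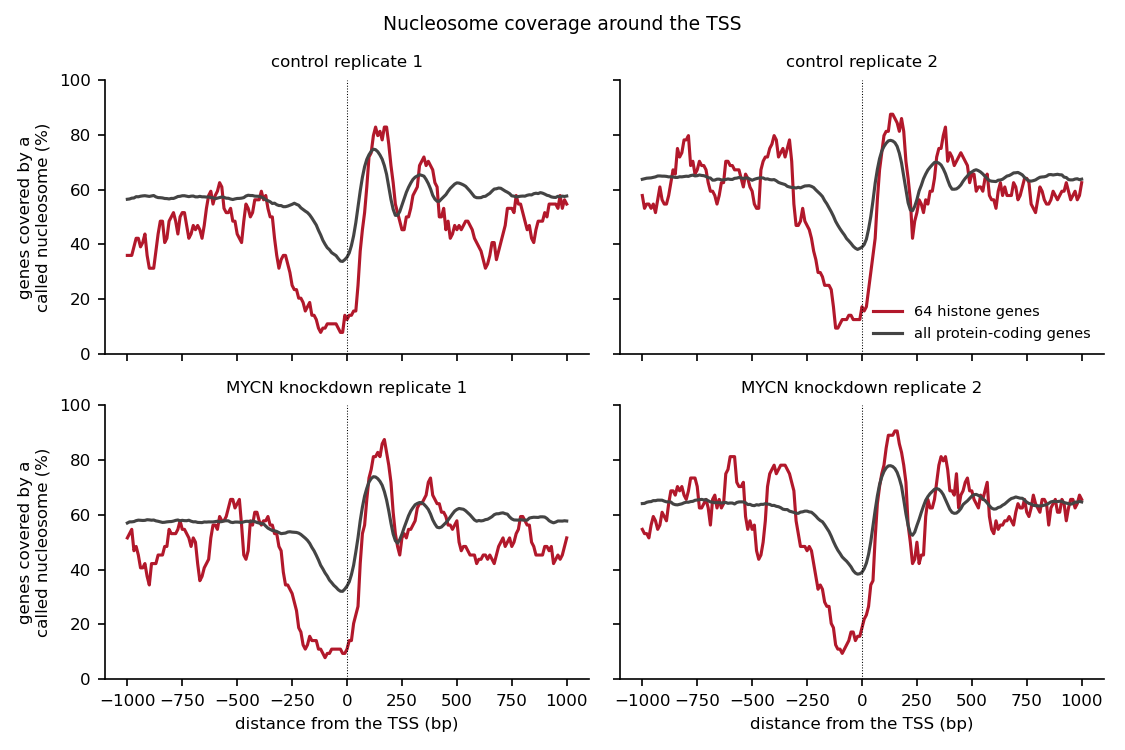
Share of genes covered by a called nucleosome (percent) against the distance from the TSS in bp, 1 panel per library, for the 64 histone genes (red) and all protein-coding genes (grey). The red line falls to 6.25% to 9.38% near the TSS and rises to 84.4% to 92.2% downstream, whereas the grey line stays between 32.0% and 78.0% there.

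Divergent H2A and H2B genes had a common empty region. There were 10 such pairs, with TSSs 194 to 251 bp apart, and 1 pair of another kind (H3C7 and H2BC9, 979 bp apart). In 9 of the 10 H2A-H2B pairs no dyad lay between the TSSs in any library, and the flanking dyads were 419 to 937 bp apart. The longest stretch on average was that of H2BC12 and H2AC12, with 769, 530, 937 and 491 bp. The most even was that of H2AC25 and H2BC26 on chromosome 1, with 477, 461, 488 and 488 bp (mean 478.5 bp, SD 12.8). Only the pair of testis forms, H2AC1 and H2BC1, had a dyad between its TSSs, in each of the 4 libraries. H3C7 and H2BC9 had 1, 4, 0 and 4 dyads in the longer DNA between them. Over the 22 members in divergent pairs 20 windows were empty in all 4 libraries, and over the other 42 members 31 were. Both values include the H2A and H2B classes in unequal numbers.

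**Figure D3:**
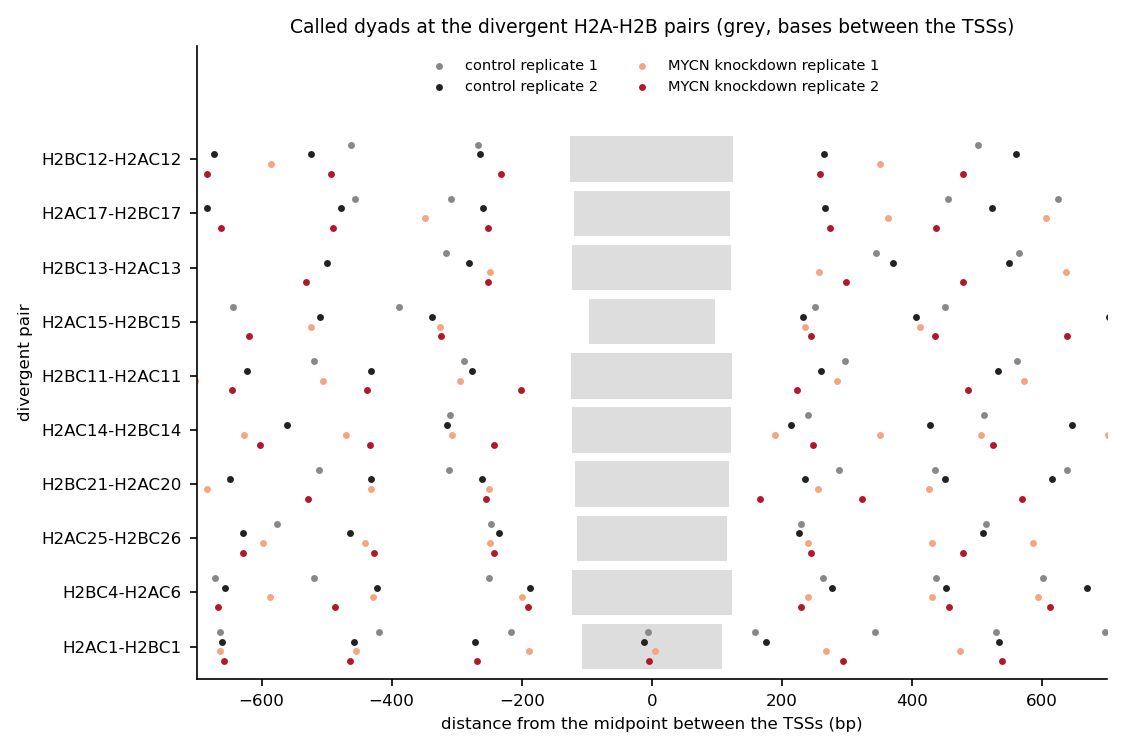
Called dyads at the 10 divergent H2A-H2B pairs against the distance in bp from the midpoint between the TSSs, with a colour per library and a grey bar for the bases between the TSSs. Dyads fall inside the bar only for H2AC1-H2BC1, where there is 1 in each library.

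In the linker histone genes the upstream nucleosome lay nearer to the TSS than in most core histone genes. The stretch without dyads had a median of 336, 334.5, 336.5 and 324 bp in the 6 H1 genes, close to the 289 to 327 bp of all genes. In the H2A genes it was 567.5, 515.5, 501 and 490 bp and in the H2B genes 567.5, 511.5, 544.5 and 445.5 bp. The H3 genes had 509, 387, 530 and 396 bp, and the H4 genes 532, 358, 575 and 364 bp. In H1-2 a nucleosome lay 205, 205, 206 and 203 bp upstream of the TSS (mean 205 bp, SD 1.26), and in H1-4 it lay 208, 202, 199 and 197 bp upstream (mean 201.5 bp, SD 4.80). Some core histone genes had an upstream dyad that varied as little, such as H3C8 (298, 288, 291 and 298 bp, SD 5.06) and H2BC26 (362, 350, 363 and 358 bp, SD 5.91). In H1-5 the upstream dyad was at 202, 198, 369 and 186 bp, and in H1-3 at 397, 199, 236 and 196 bp, so its position was not fixed across the class. The range of the upstream dyad over libraries had a median of 134 bp in the H1 genes, 67.5 bp in H2A, 105.5 bp in H2B, 272 bp in H3 and 259 bp in H4. The first dyad downstream lay in H1-4 at 145, 154, 141 and 155 bp, and in H1-1 at 137, 151, 133 and 136 bp. In H1-6 it was at 184, 10, 3 and 135 bp, a range of 181 bp that includes nucleosomes lying over the TSS. Its range over libraries had a median of 24 bp in the H1 genes, and of 73.5, 61, 43 and 60 bp in the H2A, H2B, H3 and H4 genes with a first dyad in each library. With 6 H1 genes and 4 libraries this is a description, and no test was made over the members.

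The windows held fewer nucleosome reads than the DNA around them. Reads per bp within 1000 bp of the TSS were set against the median 2-kb bin within 500 kb of the TSS, so that copy number and mappability on that scale affected both. The median member was at 68.9%, 77.3%, 71.4% and 75.6% of its surroundings, while the median over all genes was 93.6%, 89.7%, 92.2% and 91.1%. The group means of these medians were 73.1% in the control (SD 5.91) and 73.5% in MYCN knockdown (SD 2.98), a difference smaller than either SD. Over the transcribed bases alone the members were close to their surroundings, at 94.1%, 90.1%, 93.7% and 91.7% (all genes 101%, 99.9%, 100.6% and 99.7%). The surroundings themselves differed by cluster. They stood at 130% to 137% of the genome's median bin for the 10 genes on chromosome 1 and at 144% to 155% for the 2 others there, but at 83.2% to 92.1% on chromosome 6.

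The class medians of the level, averaged over the 4 libraries, were 94.2% for H1, 74.5% for H2A, 66.3% for H2B, 73.2% for H3 and 70.3% for H4. The H2B median was below the H2A median in each library (63.1%, 66.2%, 62.6% and 73.4% against 70.3%, 76.8%, 75.6% and 75.3%), while the SD of a class median within a group reached 14.0, for H4 in the MYCN knockdown. H2AC1 stood at 189.6%, 145.9%, 131.8% and 118.7% of its surroundings, with 165, 219, 116 and 177 reads. H2BC1, whose window overlaps it, stood at 188.4%, 137.3%, 127.2% and 118.7%. The highest H1 gene was H1-1 (132.1%, 107.2%, 105.6% and 119.1%), the highest H4 gene H4C7 (96.5%, 107.8%, 96.5% and 105.9%) and the highest H3 gene H3C6 (77.9%, 103.9%, 80.9% and 75.1%), which H3C11 equalled with a mean of 84.4%. The lowest of each class were H1-3 with a mean of 75.1% (SD 13.9), H2AC13 with 54.4% (SD 13.5), H2BC13 with 57.2% (SD 9.97), H3C2 with 55.6% (SD 8.72) and H4C3 with 50.3% (SD 9.14). H2AC13 and H2BC13 are a divergent pair with overlapping windows.

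**Figure D4:**
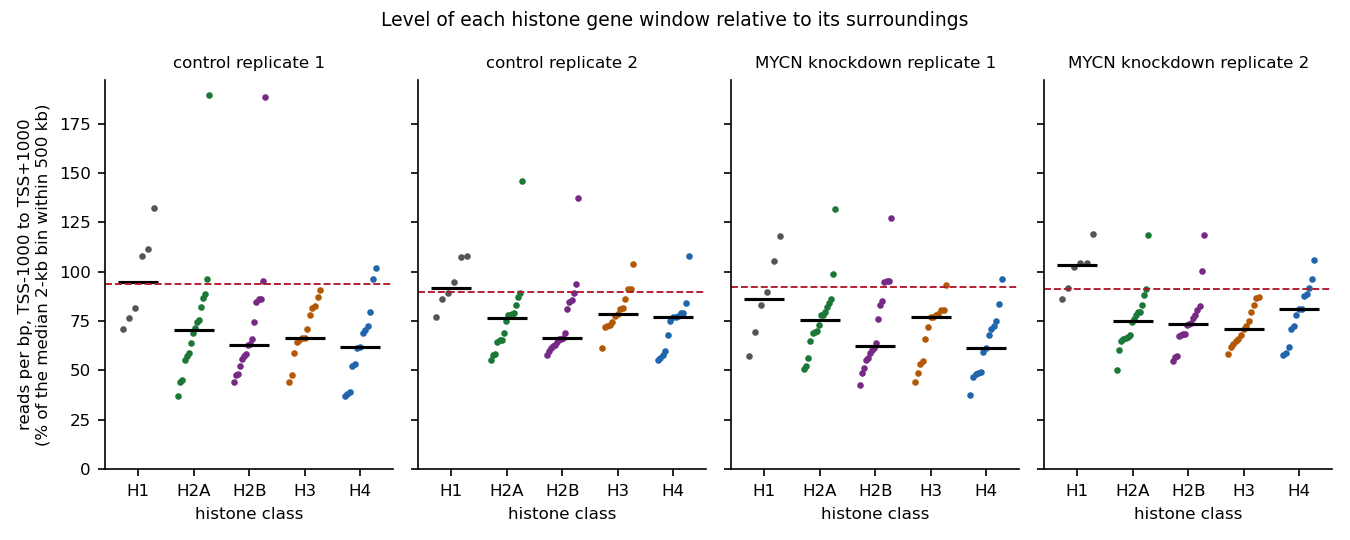
Reads per bp in the window of each histone gene as a percentage of the median 2-kb bin within 500 kb, by class, 1 panel per library. Points are genes, black lines are class medians and the dashed red line is the median over all protein-coding genes (89.7% to 93.6%). The class medians of H2A, H2B, H3 and H4 lie below the dashed line in each panel, and the highest points of H2A and H2B are H2AC1 and H2BC1.

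Some members have near-identical copies, to which reads cannot be assigned with certainty. Words of 147 bases occurring more than once in GRCh37 were found in the windows of 18 members (H2BC18, H3C13, H4C14, H3C14, H2AC19, H3C15, H4C15, H2BC21, H2AC20, H2AC21, H2AC25, H2BC26, H2BC13, H2AC13, H2AC14, H2BC14, H4C11 and H4C12). In H4C14, H4C15, H3C14 and H3C15 on chromosome 1 every word had a second copy, and in H2AC19 87.1% did. The study's methods kept reads with a mapping quality above 10, which reads from exact copies often do not reach. These windows nonetheless held reads like those of other members, as in H4C14 (96, 155, 96 and 174 reads) and H4C15 (105, 136, 78 and 162 reads). The cause was not tested. Averaged over the 4 libraries, the median level of members without repeated words was 73.4%, against 73.3% over all members.

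The stem-loop after the coding region was found in 61 of 64 genes, 25 to 70 bases after the last amino acid codon, as 6 stem bases, a loop of 4 bases and 6 stem bases (in capitals). The commonest form, in 38 genes, is shown with a form of higher GC content, found in 8 genes. The same GC-rich stem stood with another loop in 4 more genes, and all genes with this stem were H4 genes.
Commonest stem-loop: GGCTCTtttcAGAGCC
Stem-loop with a GC-rich stem: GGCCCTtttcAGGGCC
It was not found in H3C6, H2BC10 and H4C13 within 120 bases. A called nucleosome covered it in 34, 41, 37 and 41 of the 61 genes (55.7%, 67.2%, 60.7% and 67.2%), and in all 4 libraries in 14. Far from the TSS, members were covered at 46.8%, 61.1%, 48.6% and 63.5% of bases, so the stem-loops were not free of nucleosomes as the promoters were.

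MYCN knockdown was then compared with the control at these genes. No histone gene window changed in its reads by the test used. In edgeR's quasi-likelihood test, 0 of 20099 protein-coding windows (0%) had an adjusted p under 0.05, the smallest being 0.772, and DESeq2 also called 0. At an unadjusted p under 0.05 there were 693 windows (3.45%) in edgeR and 1 of 64 members, H2AC1. The median log2 change over members, MYCN knockdown minus control, was 0.03, with 37 genes higher and 27 lower, and the median over all windows was -0.00060. The sign depended on single libraries, since the median was -0.05 without control replicate 1 (26 higher and 38 lower) and -0.10 without MYCN knockdown replicate 2 (23 and 41), but 0.18 without control replicate 2 (45 and 19) and 0.14 without MYCN knockdown replicate 1 (48 and 16). The standard error of a member's log2 change had a median of 0.24 (range 0.17 to 0.37), and 0.18 over all windows. Relative to the total of each list, both knockdown libraries lay above both control libraries in 9 members (14.1%, against 12.5% of all windows) and below them in 7 (10.9%, against 18.4%).

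The largest rises in the windows were in 3 core histone genes. H2AC8, an H2A gene, had 38, 84, 65 and 99 reads (log2 change 0.50, SE 0.32). H2AC14 had 39, 122, 85 and 118 reads (0.44, SE 0.25) and H4C1 had 33, 85, 60 and 89 reads (0.43, SE 0.35). In each of these control replicate 1 was the lowest library, and the deeper replicates 2 of the groups were close to each other. In the other direction, H2BC10 had 56, 123, 45 and 87 reads (log2 change -0.38, SE 0.29). H2AC1 had a log2 change of -0.36 (SE 0.17), with an unadjusted p of 0.0363 and an adjusted p of 0.9999 in edgeR's quasi-likelihood test across all windows. H2BC1, with 164, 206, 112 and 177 reads, had a log2 change of -0.34 (SE 0.17). Relative to their surroundings both knockdown libraries were below both control libraries in H2AC1 and H2BC1, which share most of a window and are not independent of each other.

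**Figure D5:**
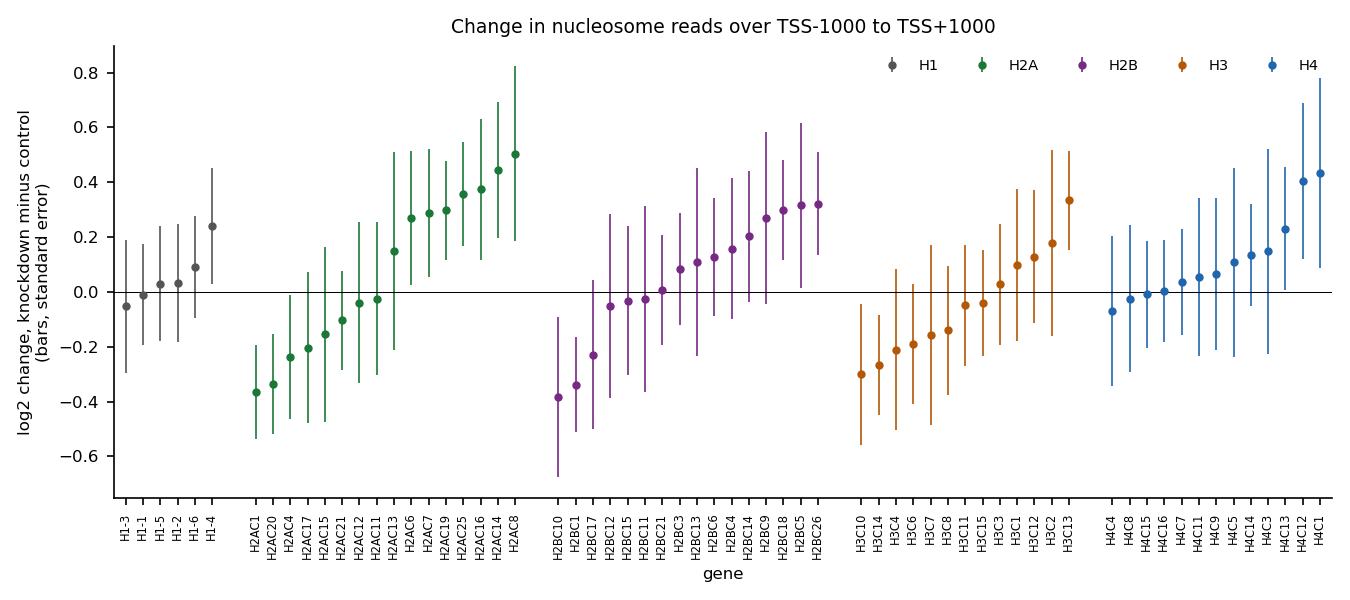
Log2 change in reads within 1000 bp of the TSS, MYCN knockdown minus control, for each histone gene by class, with bars for the standard error of the edgeR fit on 2 libraries per group. The values run from -0.38 (H2BC10) to 0.50 (H2AC8) on both sides of 0, and none passed the adjusted threshold.

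Over the annotated gene spans and the transcripts the result was alike. The span was over 1 kb in 18 members and in most of these reached beyond the canonical transcript. In H2BC4, for example, it was 37610 bp, with a transcript of 460 bp. The annotated gene span was tested in 63 members, since H4C3, with 0, 6, 10 and 15 reads, was below the minimum mean of 10 reads. None of 20088 spans was called by edgeR in the fit by group alone. At an unadjusted p under 0.05 there were 2 members, against 2.07% of all spans. These were H2BC26, with 231, 382, 329 and 458 reads over an annotated span of 5002 bp (log2 change 0.42, SE 0.12), and H3C10, with 61, 101, 41 and 68 reads over 1250 bp (-0.54, SE 0.21), each with an adjusted p of 0.9936. The largest rises were in H4C7 (14, 23, 22 and 39 reads, log2 change 0.75, SE 0.36), H2AC16 (0.66, SE 0.35) and H4C11 (0.63, SE 0.55). The largest falls were in H4C5 (26, 18, 8 and 19 reads, log2 change -0.71, SE 0.58), H3C7 (-0.68, SE 0.45) and H2BC13 (-0.59, SE 0.51). Restricted to the canonical transcript, an analysis added after the data were seen, 1 member and 2.02% of all transcripts had an unadjusted p under 0.05. That gene was H2BC6, with 21, 18, 36 and 59 reads over 470 bp (log2 change 1.29, SE 0.38, edgeR adjusted p = 0.997). With a replicate block, H2BC26 was called over its span and H2BC6 over its transcript, as given in the last section.

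By the 80% rule and over all 4 libraries, the empty state of the promoters did not switch with the group in any member. Of 54 members empty in both control libraries, 0 were filled in both knockdown libraries, and 5.25% of all such genes were. Divergent partners share this DNA and are not independent, and whether members differed from all genes in this was not tested. If a dyad inside the 251 bp sufficed, 2 members were filled, with no share over all genes given here. These were H1-4 and H4C16, which were looked up after that count was seen. In both the same upstream nucleosome crossed the edge of the window, at 208, 202, 199 and 197 bp before the TSS in H1-4 and at 223, 211, 193 and 191 bp in H4C16. By the 80% rule the reverse did not occur either, with 0 of 54 members emptied upon knockdown against 5.64% of all genes that could have been. The mean fuzziness of the window, weighted by reads, was 34.5, 35.7, 34.0 and 34.9 bp in the median member and 33.5, 35.3, 33.5 and 35.3 bp over all genes. In limma 0 windows were called, and 0 members and 1.76% of all windows had an unadjusted p under 0.05. The median difference over members was -0.52 bp, with 25 higher and 39 lower and a median standard error of 2.75 bp. The lowest was H4C5 with 40.9, 36.5, 33.0 and 32.6 bp and the highest H2BC12 with 30.1, 28.4, 36.5 and 32.2 bp. The H1 genes had the lowest median fuzziness of the classes in each library (31.3, 32.3, 30.6 and 32.3 bp).

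A pair of related gene lists gave a comparison. Of 17 replication-independent histone genes, most of which encode variants made throughout the cell cycle or in germ cells, 5 were empty in all 4 libraries (29.4%), namely H2AX, H2AZ1, H2AZ2, H3-3A and MACROH2A2. This share was close to the 32.3% of all genes. The median window level, averaged over the 4 libraries, was 95.7% of the surroundings. Of 18 genes for histone transcription and mRNA processing, 10 were empty in all 4 libraries (55.6%), among them CASP8AP2, HINFP, LSM10 and POU2F1, and the median level was 78.8%. In neither list was a gene called after knockdown in edgeR, and each had 1 gene with an unadjusted p under 0.05. In the first list this was MACROH2A2, which encodes a macroH2A variant, with 111, 190, 81 and 124 reads, and its log2 change of -0.50 (SE 0.19) was the largest fall. The largest rise was in H2AJ (104, 191, 150 and 175 reads, log2 change 0.22, SE 0.18). In the second it was CPSF2, a subunit of the cleavage complex, with 103, 156, 126 and 209 reads and the largest rise (0.40, SE 0.18). The largest fall there was in SLBP, the stem-loop binding protein (142, 178, 92 and 164 reads, log2 change -0.32, SE 0.18).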

How the data were processed

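MNase-seq libraries of BE(2)C cells were analysed, 2 of the control and 2 of MYCN knockdown, grouped by their titles. Per the labels and the study's methods, the authors called bases with CASAVA 1.9, trimmed reads with Trim Galore 0.4.4, mapped them to hg19 with Bowtie2 2.2.4, discarded improper pairs and those of mapping quality 10 or lower, removed PCR duplicates with Samtools and called nucleosomes per library with Genetrack. In the deposited lists, counts are the fragment midpoints of each nucleosome, as whole numbers of at least 6 without normalization. The deposited fuzziness score is the standard deviation of midpoints in bp. Since nucleosomes under 6 reads are left out and MNase digestion depends on base composition, shallower libraries list fewer nucleosomes, and GC content was examined.

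Genes and TSSs (canonical transcript) came from GENCODE v44lift37, and coordinates are GRCh37, counted from 1. Reads of dyads were summed per window, gene span and transcript. Sums were tested with edgeR 4.0.16 (quasi-likelihood, TMM, list totals as library sizes, a mean of at least 10 reads, group only) and fuzziness with limma 3.58.1. Benjamini-Hochberg adjusted p-values over all protein-coding genes were called under 0.05. Alternatives included DESeq2 1.42.0, other windows, scalings and filters, a GC offset, a replicate block and leaving out each library. The members and gene lists were chosen with earlier results of these data known. Named genes were the 3 members with the largest rise and fall, members called or switching with group, the highest and lowest level per class, and the largest rise and fall per list. The replication-independent list as first fixed had 19 genes, including H2BU1 and H4-16, which are other names of H2BC26 and H4C16. The rule by symbol took both as members, so they were counted as members only and the list kept 17 genes. Members with a low unadjusted p, H1 genes and H2BC6 were named after their values were seen.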

Additional observations from a re-analysis of the deposited data

How the results depend on the processing

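The 10 results were recomputed under 113 alternative values, of which 83 stayed the same by the criteria used and 30 moved. The criteria were wide. Median log2 changes of -0.10 to 0.18, and 39 empty members in place of 51, all counted as the same. The number of windows called stayed at 0 under every alternative on windows around the TSS, with or without the replicate block, except that leaving out libraries gave 0 to 7 (7 without control replicate 2). The replicate numbers carry no stated batch, so the values of the paired fits are only given here. Deviations from the group means correlated at 0.22 between same-numbered libraries. With 2 libraries per group this value is the same for both pairs by construction, so it cannot decide on a pairing. Read depth did follow the replicate number. With the replicate block, added after the data were seen, 1995 of 20088 gene spans and 1764 of 20088 transcripts were called. Of 63 members tested, 1 was called in each. These were H2BC26 in the spans (log2 change 0.41, edgeR adjusted p = 0.0125) and H2BC6 in the transcripts (log2 change 1.30, edgeR adjusted p = 0.00228). The same-numbered pair 2 alone gave 4 members filled and 3 emptied upon knockdown, against 0 and 0 for pair 1. For these counts and the next, the shares of all genes that switched are not given. The counts therefore cannot be set against other genes. Members filled upon knockdown numbered 2 when at least 50% of a nucleosome, or its dyad, had to lie in the window, and 0 to 3 without each library in turn (3 without MYCN knockdown replicate 1), while emptied members numbered 0 to 3 (3 without control replicate 1). Members empty in all libraries ranged from 39 (50% rule, 19.1% of all genes) to 57 (same-numbered pair 1 alone, 47.5%), with 55 at equal depth (38.6%). The median level of members was 69.3% of the genome's median 2-kb bin and 67.8% of the median protein-coding window. The median fuzziness difference was 0.42 bp from nucleosomes of at least 20 reads and -1.52 bp (without control replicate 1) to 0.41 bp (without MYCN knockdown replicate 1) on leaving out libraries, so its sign was not stable, and 0 to 1 windows were called for fuzziness. Leaving out each library gave median log2 changes of -0.10 to 0.18, so this sign was not stable either. Low read counts limit these results: a member's window held 32 to 219 reads and its transcript 0 to 175.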
